A study of Rattus norvegicus with 19 samples.

Results

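The unfolded protein response is the programme by which a cell meets a load of unfolded protein in the endoplasmic reticulum (ER). Its genes, with those of ER protein folding and ER-associated degradation (ERAD), were followed by name through the liver arrays of a dosing study of DE-71, a flame retardant made of brominated diphenyl ethers, chiefly pentabrominated. Of 36 listed genes, 34 had a probe set annotated to 1 gene symbol, out of 14217 genes so represented on the array. Where a gene had several probe sets, the one with the highest mean signal over the 19 arrays was used. Derl3 and Ern1 had no such probe set and were not analysed here. The 34 genes comprised 9 ER chaperones and co-chaperones, 6 disulfide isomerases and lectin chaperones, 3 translocation components, 7 ERAD components, 3 stress sensors and transcription factors (Xbp1, Atf6 and Eif2ak3), 5 genes of the ATF4 branch (Atf4, Ddit3, Chac1, Trib3 and Asns) and Ppp1r15a.

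Liver RNA was hybridised to Affymetrix Rat230_2 arrays, whose deposited values are log2 signals from robust multi-array averaging (RMA). Pregnant Wistar Han rats, 11 to 12 weeks old on gestation day 2, were gavaged daily from gestation day 6 to postnatal day 4. The vehicle group received corn oil (5 arrays), and the treated groups received DE-71 in corn oil at 0.1 mg/kg (5 arrays), 15 mg/kg (4 arrays) or 50 mg/kg (5 arrays) per day. Liver was taken on postnatal day 4. The labels do not say whether it came from pups or dams, nor whether replicate arrays are of different animals or litters. The p-values therefore cover only array-to-array spread, which may be technical. The labels give the sex as female, but the Y-linked Uty read 9.46 to 10.03 and Eif2s3y 9.55 to 10.07 over all 19 arrays. Xist, the transcript of the inactive X chromosome, read 3.88 to 4.29. These are values of male tissue, so the liver does not read as that of dams. RNA came from pieces of the left lateral lobe, so a change in the share of a cell type and a change in RNA per cell cannot be told apart. The hepatocyte list (8 of 9 genes measured, among them albumin) averaged 14.4 to 14.5 on every array, near the top of the signal range.

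Sensors in the ER membrane report its load. IRE1, encoded by Ern1, splices the mRNA of Xbp1, and ATF6 is cut in the Golgi and freed to enter the nucleus. PERK, encoded by Eif2ak3, phosphorylates the translation factor eIF2alpha. XBP1 and ATF6 act on ER stress elements in the promoters of chaperone and ERAD genes. Phosphorylated eIF2alpha lowers general translation and raises that of ATF4, which acts on genes of amino acid synthesis, redox control and cell death. Other eIF2alpha kinases, which read amino acid shortage, haem deficiency or viral RNA, also feed ATF4, so ATF4 targets are not particular to ER load. Hepatocytes secrete most plasma proteins, and their ER folding machinery is accordingly abundant.

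Promoter sequence was read to show which letters the chaperone arm and the ATF4 arm carry. Windows from 250 bases before to 50 after the gene start came from RefSeq (build GRCr8), and 29 of the 36 genes matched one. The ER stress element was searched as CCAAT and CCACG with 9 bases between them, on both strands. It was present in 22 of 33469 windows (0.0657%) and in 8 of the 29 genes, namely Hspa5, Hsp90b1, Dnajc3, Creld2, Calr, Canx, Xbp1 and Derl3. The matches of the measured genes are printed with their flanking bases, and capitals mark the element, which may lie on either strand. Hsp90b1 carried it 2 times.
Hspa5, chr3:38452958-38453006, plus strand: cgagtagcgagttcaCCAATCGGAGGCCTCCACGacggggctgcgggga
Hsp90b1, chr7:23012332-23012484, minus strand: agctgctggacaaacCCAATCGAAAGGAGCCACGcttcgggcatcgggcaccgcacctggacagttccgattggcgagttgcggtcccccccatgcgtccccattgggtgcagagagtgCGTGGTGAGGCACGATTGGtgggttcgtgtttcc
Dnajc3, chr15:102432519-102432567, plus strand: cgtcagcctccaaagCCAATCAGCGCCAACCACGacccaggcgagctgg
Creld2, chr7:121789224-121789272, plus strand: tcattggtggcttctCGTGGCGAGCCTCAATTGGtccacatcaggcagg
Calr, chr19:40213120-40213168, plus strand: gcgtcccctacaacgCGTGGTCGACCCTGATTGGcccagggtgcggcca
Canx, chr10:35158054-35158102, minus strand: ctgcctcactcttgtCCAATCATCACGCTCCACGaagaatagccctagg
Xbp1, chr14:84604543-84604591, plus strand: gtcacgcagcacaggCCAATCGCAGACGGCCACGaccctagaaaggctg
None of the 5 ATF4 branch promoters held the full element. At least 9 of its 10 fixed letters were matched in 14 of the 29 genes, against 1.41% of all windows. Ddit3 was the 1 ATF4 branch gene among these 14. The ATF4 site was searched as TGATGNAA on both strands and was found in 3.98% of all windows. Among the 29 genes it was present in Chac1, Trib3 and Herpud1, shown here with the site in capitals as it reads on the gene's strand.
Chac1, chr3:126795949-126795986, plus strand: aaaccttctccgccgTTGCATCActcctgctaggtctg
Trib3, chr3:161275532-161275569, minus strand: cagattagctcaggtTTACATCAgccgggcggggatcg
Herpud1, chr19:10614869-10614906, minus strand: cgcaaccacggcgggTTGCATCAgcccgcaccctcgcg
The shorter CCACG alone was in 24 of the 29 genes against 31.6% of all windows, and CCAAT alone was in 37.5% of all windows. Sdf2l1, which rose most of the 34 genes, had no full element. Its whole window follows with CCAAT and CCACG on either strand in capitals.
Sdf2l1, chr11:97376628-97376927, plus strand: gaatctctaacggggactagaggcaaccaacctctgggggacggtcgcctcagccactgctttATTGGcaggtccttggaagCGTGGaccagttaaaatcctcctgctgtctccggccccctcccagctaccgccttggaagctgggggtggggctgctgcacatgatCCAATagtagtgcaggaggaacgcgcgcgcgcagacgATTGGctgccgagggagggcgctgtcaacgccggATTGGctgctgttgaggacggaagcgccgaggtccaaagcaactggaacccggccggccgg
A match of letters describes the window and does not show that a factor was bound.

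Several arrays stood apart, in all 4 dose groups. Every comparison uses them, since the spread was estimated over all 19 arrays. Vehicle replicate 2 and 0.1 mg/kg replicate 2 were nearly identical: the SD of their difference over all probe sets was 0.128, against a median of 0.385 over the 171 pairs of arrays and a next lowest value of 0.197. Both also carried kidney transcripts (mean of 6 of 7 listed genes 10.6 on each), as did 50 mg/kg replicate 3 at a lower level (7.55), against group medians of 4.45 to 4.65. The pair also carried exocrine pancreas transcripts (12 of 14 listed genes, 8.62 and 8.64). The pancreas list was also raised in vehicle replicate 4 (7.41) and 15 mg/kg replicate 5 (8.07), while on the 50 mg/kg arrays it lay between 4.90 and 5.05. Skeletal muscle transcripts (9 of 10 listed genes) were high on both sides of the comparison with vehicle, at 11.7 and 9.49 for vehicle replicates 1 and 5 beside 10.2 and 9.63 for replicates 2 and 3 of the highest dose. The array of 0.1 mg/kg replicate 1 read 14.1 for Cyp1a1, the aryl hydrocarbon receptor target, in the range of the 15 and 50 mg/kg arrays (13.2 to 14.3) and far above the other arrays of its group (7.19 to 8.42), which goes against its label. Each array also has a number in the submitters' labels. Numbers 1 to 8 hold 4 of the 5 highest-dose arrays but only 1 array of each other group. What the numbers mark is not given in the labels.

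At 50 mg/kg the ER folding genes lay above vehicle as a group while the ATF4 branch did not. Of the 34 genes, 6 rose, none fell and 28 did not pass limma's test at an adjusted p of 0.05. Those that rose were Sdf2l1, Dnajb11 and Dnajc3 among the chaperones, the isomerase Pdia4, the translocon-associated Ssr1 and the ERAD channel component Derl1. Over all 31042 probe sets, 1.61% passed in this comparison (499, of which 380 rose and 119 fell). That background includes many weak signals, whereas the 34 genes all lay above the median level (lowest Ddit3, percentile 63.9). With only probe sets above the median level tested, 691 passed, a higher share of fewer probe sets, and 10 of the 34 genes. The median difference of the 34 genes was 0.28 on the log2 scale, with 24 above zero, beside a median of 0.0058 and 51.5% above zero over all genes. The 22 chaperone, isomerase and ERAD genes had a median of 0.31 with 19 above zero, and the 5 ATF4 branch genes a median of -0.27 with 1 above zero. Against the same vehicle arrays, the 22 genes had a median of 0.12 with 20 above zero at 15 mg/kg and of 0.078 with 22 above zero at 0.1 mg/kg. Their count above zero was thus not higher at 50 mg/kg than at the lower doses. The 5 ATF4 branch genes had a median of -0.059 at 15 mg/kg and -0.051 at 0.1 mg/kg, with 1 above zero at each dose. This split of signs was therefore not particular to 50 mg/kg. All 5 arrays at 50 mg/kg lay above every vehicle array for 7 genes (Sdf2l1, Pdia4, Calr, Xbp1, Derl1, Ssr1 and Vcp), beside 3.21% of all probe sets, and below every vehicle array for 1 gene (Chac1), beside 1.48%.

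**Figure D1:**
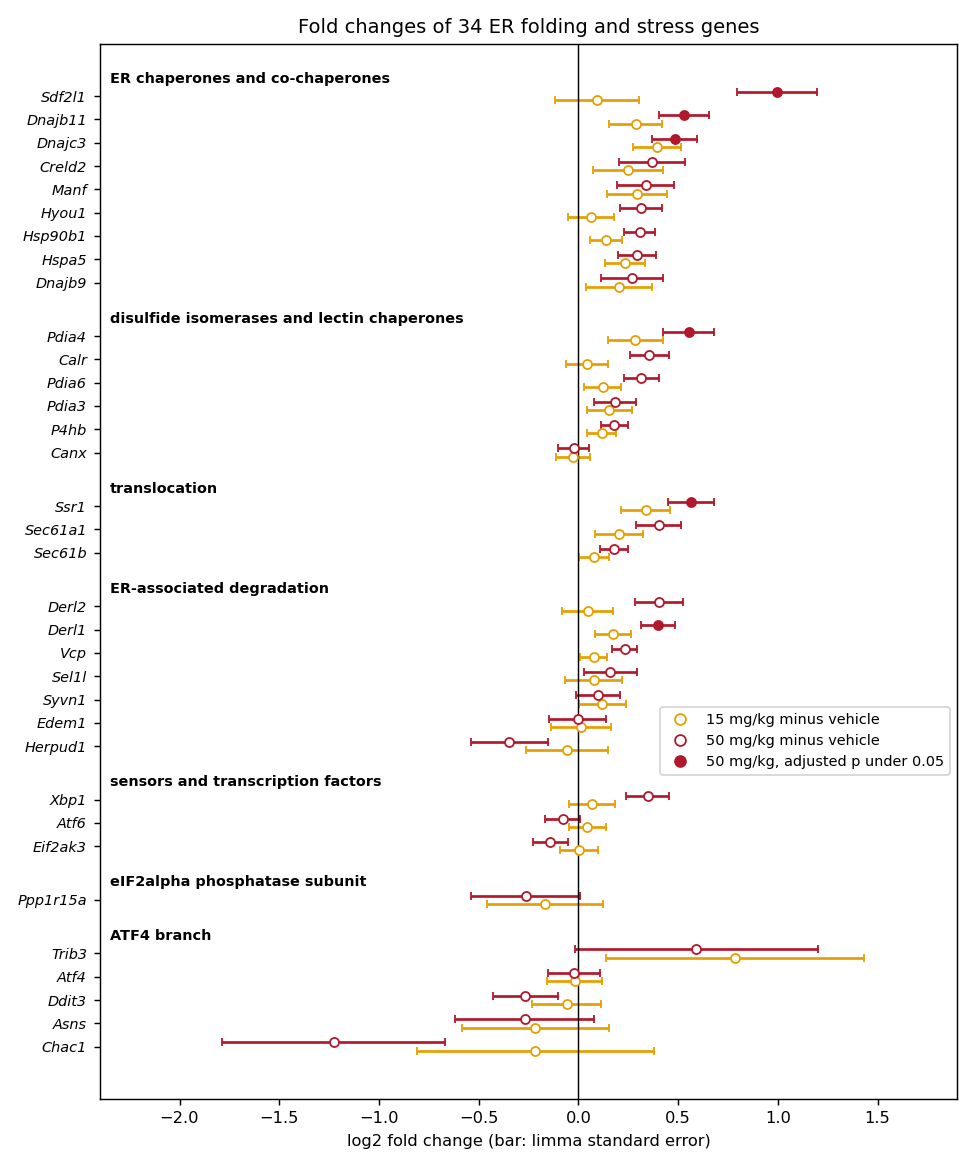
Log2 fold changes of the 34 genes by role at 15 mg/kg (yellow) and 50 mg/kg (red) against vehicle, with limma standard errors as bars, filled where the adjusted p is under 0.05. The filled points are the 6 genes that rose at 50 mg/kg, and the 9 chaperones all lie above zero at both doses, whereas 4 of the 5 ATF4 branch genes lie below it.

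These calls depend on which arrays enter. With vehicle replicate 2 and its near-identical partner left out 5 of the 34 genes passed (Dnajb11 did not, adjusted p 0.0776), and with 0.1 mg/kg replicate 1 left out as well 4 passed. Fewer than 4 passed when a single array was left out for vehicle replicates 1, 2 or 5 (1 gene each), vehicle replicate 4 (3 genes), 0.1 mg/kg replicate 3 (3 genes), or 50 mg/kg replicates 1 (1 gene), 2 or 4 (2 genes each). None passed with array numbers 1 to 8 and 9 to 20 as a block, nor with vehicle replicates 2 and 4, which carry pancreas transcripts, left out together. The counts over all probe sets fell as well, from 499 to between 178 and 353 in the single leave-outs just named. They were 57 with the block and 88 without vehicle replicates 2 and 4, so the loss of calls was not particular to these genes. The differences moved less than the calls. In all 34 alternatives the 9 chaperones stayed above zero, and the median of the 22 folding and ERAD genes lay between 0.24 and 0.35. The alternatives share most of their arrays, so this adds no separate support. At 0.1 mg/kg, where no gene passed, 7 to 9 of the 9 chaperones lay above zero over the same alternatives.

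Among the chaperones the largest difference was that of Sdf2l1, an ER-resident partner of the ERdj3 co-chaperone complex. Its log2 signals were 8.25, 9.06, 8.59, 8.42 and 8.63 in vehicle replicates 1 to 5 and 9.19, 10.23, 9.74, 9.49 and 9.26 at 50 mg/kg. The arrays at 0.1 mg/kg (8.27 to 9.08) and 15 mg/kg (8.40 to 8.94) stayed within or near the vehicle range, so the 5 highest of the 19 arrays were those of the highest dose. The difference at 50 mg/kg was 1.00 ± 0.20 (SE), a 1.99-fold rise (limma, Benjamini-Hochberg adjusted p = 0.0184). It passed in 31 of 34 alternatives. The exceptions were the array number block (adjusted p 0.053), vehicle replicates 2 and 4 left out (0.0553) and vehicle replicate 1 left out (0.052). Within numbers 1 to 8 the 4 arrays at 50 mg/kg lay 1.42 above the 1 vehicle array, and within numbers 9 to 20 the 1 array at 50 mg/kg lay 0.59 above the 4 vehicle arrays.

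**Figure D2:**
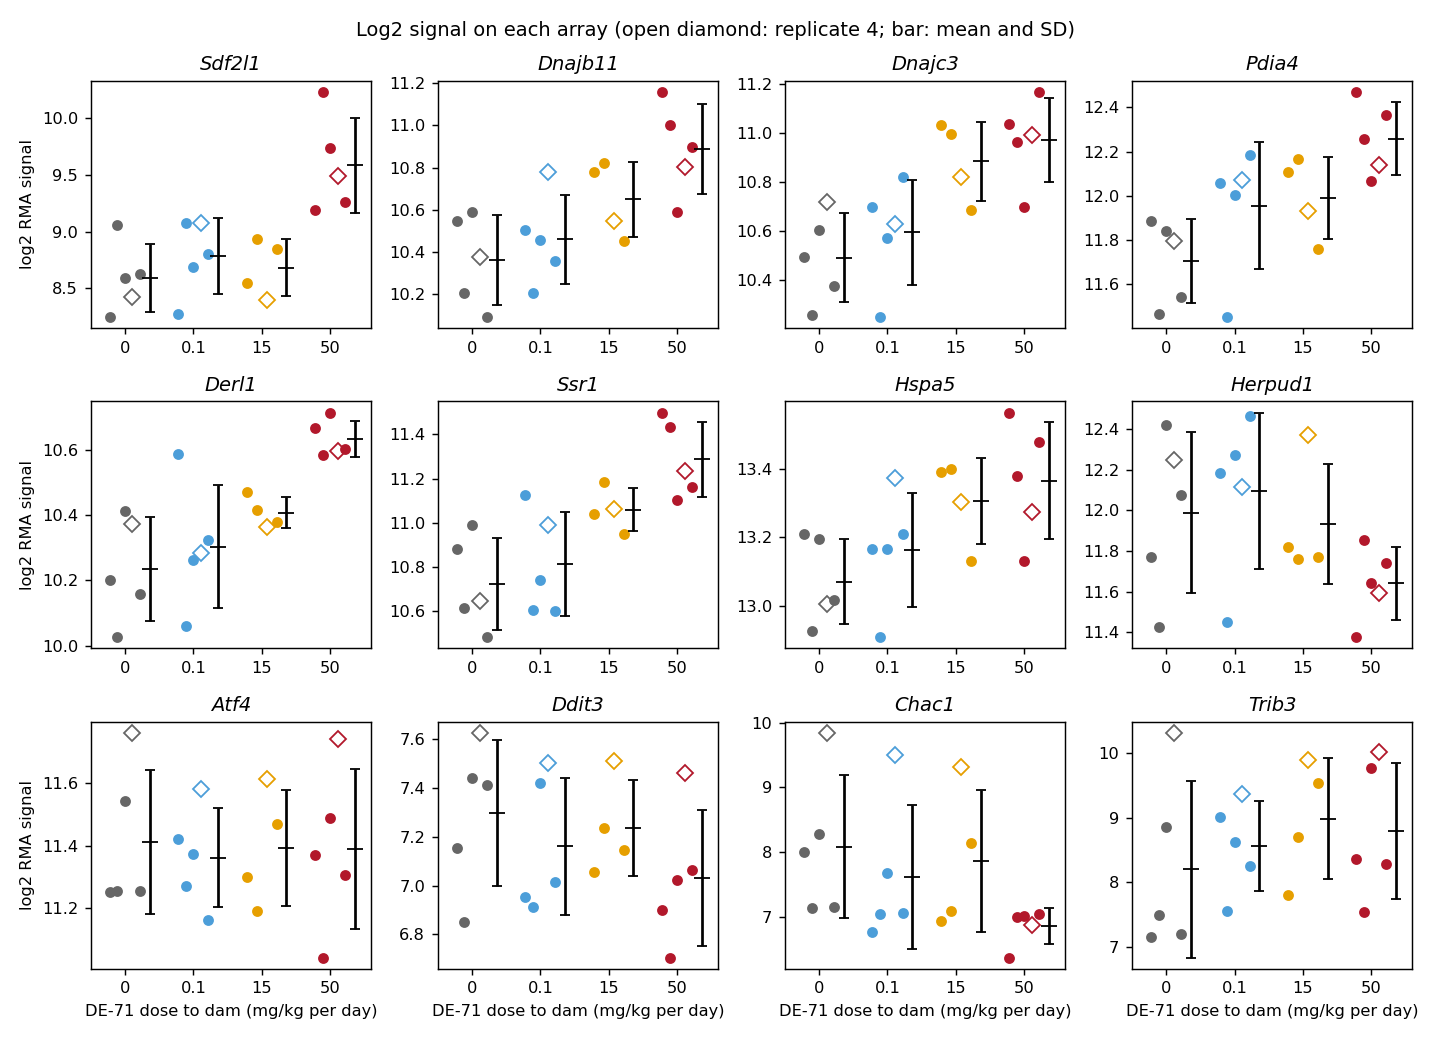
Log2 RMA signal of 12 of the genes on each of the 19 arrays by dose to the dam (mg/kg per day), with group mean and SD as a bar and replicate 4 as an open diamond. Sdf2l1 separates the 50 mg/kg arrays from the rest, whereas in the bottom row the highest array of nearly every group is replicate 4.

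Dnajb11, which encodes ERdj3, a soluble co-chaperone that delivers unfolded clients to BiP, read 10.54, 10.20, 10.59, 10.38 and 10.09 in vehicle and 11.16, 11.00, 10.59, 10.80 and 10.90 at 50 mg/kg. The groups met at one value, 10.59, and the difference was 0.53 ± 0.13 (adjusted p = 0.0426). Dnajc3, or p58IPK, a co-chaperone of BiP also known to inhibit PERK, read 10.50, 10.26, 10.61, 10.72 and 10.38 in vehicle and 11.04, 10.97, 10.70, 10.99 and 11.17 at 50 mg/kg. Only 1 array at 50 mg/kg (replicate 3) fell within the vehicle range, and the difference was 0.48 ± 0.11 (adjusted p = 0.0402). At 15 mg/kg Dnajc3 lay 0.39 ± 0.12 above vehicle with an unadjusted p of 0.00437, which did not pass (adjusted p = 0.427). Each of the calls at 50 mg/kg held in 17 of 34 alternatives.

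BiP itself, encoded by Hspa5, is the main Hsp70 of the ER and the usual readout of ER load. Its signals were 13.21, 12.93, 13.20, 13.01 and 13.02 in vehicle and 13.56, 13.38, 13.13, 13.27 and 13.48 at 50 mg/kg. Replicate 3 of the treated group lay inside the vehicle range. That array carried kidney and muscle transcripts, and their part in its Hspa5 value was not tested. The difference was 0.29 ± 0.10 (95% interval 0.09 to 0.49), which did not pass (limma adjusted p = 0.133) and was 1.23-fold. Without replicate 3 of the 50 mg/kg group the difference of Hspa5 was 0.35 and did not pass (adjusted p = 0.0844), Hsp90b1 passed (0.0181) and Derl1 did not (0.0621). Hsp90b1, the ER Hsp90 known as GRP94, came closest of the genes that did not pass, at 0.31 ± 0.08 (adjusted p = 0.0502), and it passed in 7 of 34 alternatives. Creld2, an ER-resident protein with disulfide isomerase activity, differed by 0.37 and Manf, a secreted ER stress protein, by 0.34. Hyou1, the nucleotide exchange factor GRP170, differed by 0.31 and Dnajb9, the BiP co-chaperone ERdj4, by 0.27, and none of these passed. The 9 chaperones thus had differences from 0.27 to 1.00 with a median of 0.34. Of these 3 passed, beside 1.61% of all probe sets. An unadjusted p under 0.05 was found for 8 of the 9, beside 4791 of all 31042 probe sets (limma). The measured genes whose promoters held an ER stress element differed by 0.48 (Dnajc3), 0.37 (Creld2), 0.36 (Calr), 0.35 (Xbp1), 0.31 (Hsp90b1), 0.29 (Hspa5) and -0.02 (Canx). Sdf2l1, without the element, rose most.

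Of the 6 isomerases and lectin chaperones 1 rose. Pdia4, or ERp72, a protein disulfide isomerase, read 11.89, 11.47, 11.84, 11.80 and 11.54 in vehicle and 12.47, 12.26, 12.06, 12.14 and 12.37 at 50 mg/kg. The groups did not overlap, and the difference was 0.55 ± 0.13 (limma adjusted p = 0.0395), with 19 of 34 alternatives passing. Calr, the lectin chaperone calreticulin, also did not overlap (11.52 to 11.78 against 11.89 to 12.29) but did not pass, with a difference of 0.36 ± 0.10 (adjusted p = 0.075). The isomerases Pdia6, Pdia3 and P4hb differed by 0.31, 0.18 and 0.18. Canx, the membrane-bound relative of calreticulin, differed by -0.02 (95% interval -0.19 to 0.14), the only gene of this role below zero. Its other probe sets gave 0.28 and 0.16, also without passing.

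The 3 translocation genes all lay above zero, and 1 rose. Ssr1, the alpha subunit of the translocon-associated protein complex, read 10.88, 10.62, 10.99, 10.65 and 10.48 in vehicle and 11.50, 11.43, 11.10, 11.24 and 11.16 at 50 mg/kg. All treated arrays exceeded all vehicle arrays, and the difference was 0.56 ± 0.12 (limma adjusted p = 0.0218). A second probe set of Ssr1 gave 0.78 ± 0.15 and passed too (adjusted p = 0.0151). The call on the first probe set held in 25 of 34 alternatives. Sec61a1, the pore of the translocon, differed by 0.40 (adjusted p = 0.0827) and the small subunit Sec61b by 0.18 (0.234).

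ERAD extracts misfolded protein for destruction by the proteasome. Of its 7 measured genes 1 rose and 5 lay above zero, with a median of 0.16. Derl1, which encodes Derlin-1 of the retrotranslocation machinery, read 10.20, 10.03, 10.41, 10.37 and 10.16 in vehicle and 10.67, 10.58, 10.71, 10.60 and 10.60 at 50 mg/kg. The treated arrays were tightly grouped above all vehicle arrays, and the difference was 0.40 ± 0.09 (limma adjusted p = 0.0271). The other probe sets of Derl1 gave 0.24 and 0.029 and did not pass, and the call held in 23 of 34 alternatives. Derl2, a second Derlin, differed by 0.40 (adjusted p = 0.103) and Vcp, the ATPase that pulls clients out of the membrane, by 0.23 (0.0696). Sel1l and Syvn1, the adaptor and the ubiquitin ligase of the HRD1 complex, differed by 0.16 and 0.10. Edem1, which marks glycoproteins for degradation, differed by -0.0027, while its other probe sets gave 0.18 and 0.38 without passing. Herpud1, which organises the HRD1 complex and whose promoter held an ATF4 site, lay on the other side, with 11.77, 11.43, 12.42, 12.25 and 12.08 in vehicle and 11.38, 11.86, 11.64, 11.59 and 11.74 at 50 mg/kg. Its difference of -0.35 ± 0.19 did not pass (adjusted p = 0.403), and its vehicle arrays alone spanned more than that.

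None of the 3 sensors and transcription factors passed. Xbp1 read 12.01, 12.08, 12.27, 12.21 and 12.34 in vehicle and 12.45, 12.51, 12.78, 12.35 and 12.56 at 50 mg/kg. The groups did not overlap, yet the difference of 0.35 ± 0.11 had an adjusted p of 0.121. Its probe set gives a single level and does not separate the spliced mRNA from the unspliced. Atf6 differed by -0.08 (95% interval -0.26 to 0.11) and Eif2ak3 by -0.14 (-0.33 to 0.05). The sensors are regulated mainly as proteins, which arrays do not show.

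**Figure D3:**
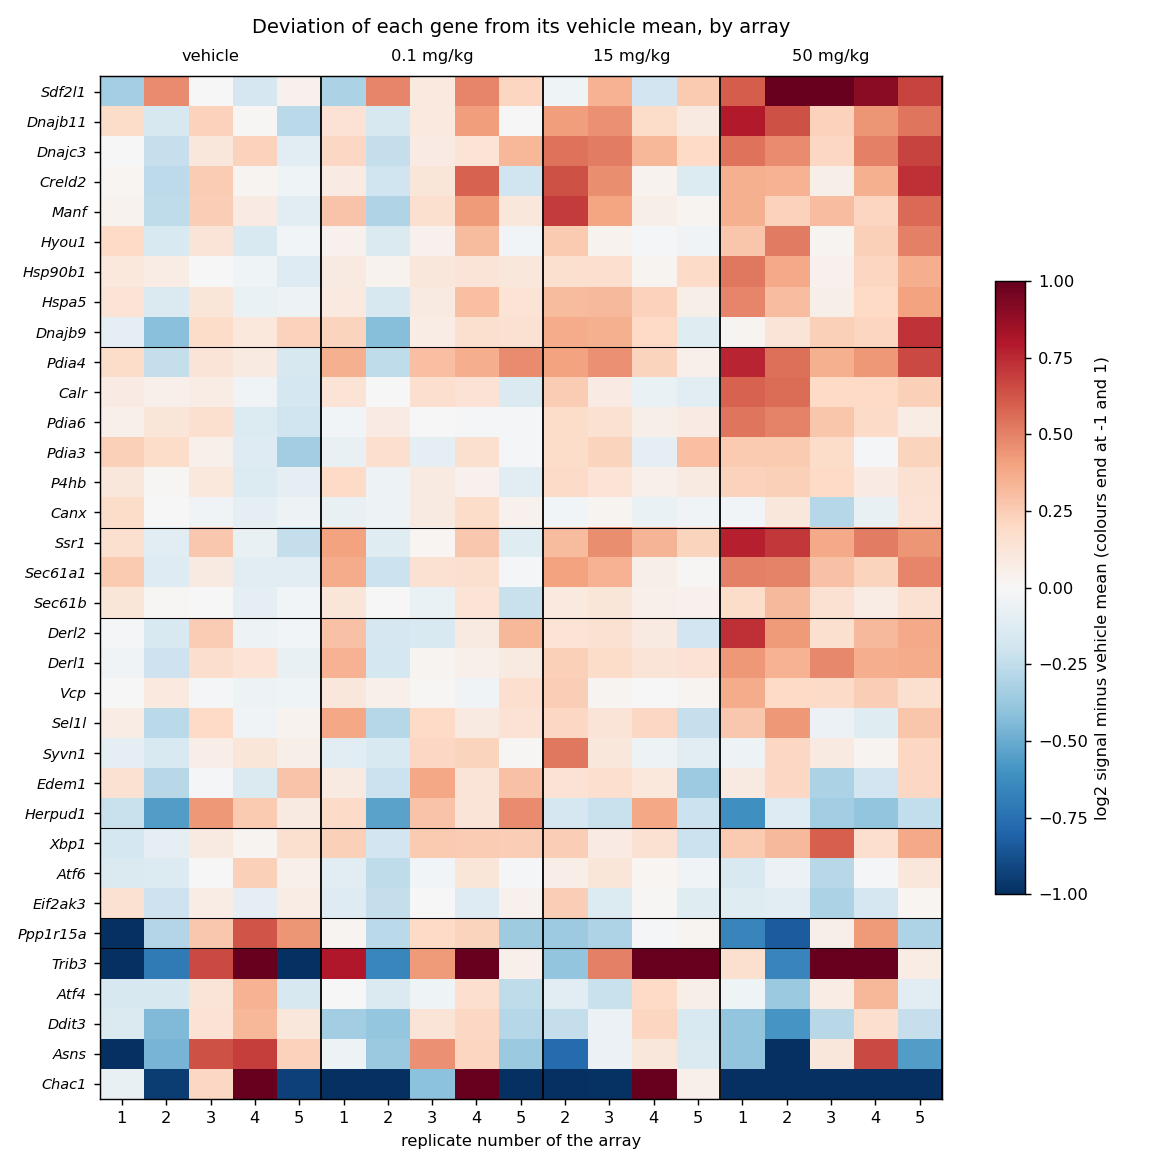
Deviation of each of the 34 genes (rows, by role) from its vehicle mean on each of the 19 arrays (columns, by group and replicate number), in log2 units with colours ending at -1 and 1. Of the 22 chaperone, isomerase and ERAD genes, 17 to 21 lie above the vehicle mean in each 50 mg/kg column, against 12 to 21 at 15 mg/kg, 5 to 20 at 0.1 mg/kg and 6 to 19 in vehicle, and Atf4, Ddit3 and Trib3 are highest in replicate 4 of every group.

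In the ATF4 branch 0 of 5 genes passed at 50 mg/kg, and the median difference was -0.27. Atf4, the transcription factor itself, read 11.25, 11.25, 11.54, 11.76 and 11.25 in vehicle and 11.37, 11.04, 11.49, 11.74 and 11.31 at 50 mg/kg. The treated arrays lay within the vehicle range except replicate 2, the lowest of all 19 arrays, with a difference of -0.02 (95% interval -0.30 to 0.25). Ddit3, the pro-apoptotic factor CHOP, differed by -0.27 (-0.61 to 0.07) in this fit and by -0.16 with array numbers as a block. The interval covers array-to-array spread only, so it does not exclude a rise. Asns, asparagine synthetase, differed by -0.27 (-0.999 to 0.46) and Trib3, a pseudokinase that binds ATF4 and AKT, by 0.59 (-0.69 to 1.88). The intervals of Asns and Trib3 are wide, so their direction was not resolved.

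Chac1, a glutathione-degrading enzyme and ATF4 target, differed most within the branch. It read 8.01, 7.13, 8.29, 9.84 and 7.15 in vehicle and 6.37, 6.99, 7.01, 6.87 and 7.04 at 50 mg/kg. Every treated array lay below every vehicle array and the treated arrays spanned far less. The difference of -1.23 ± 0.56 had an unadjusted p of 0.0417 and did not pass (limma adjusted p = 0.302). Its high arrays at the lower doses were replicate 4 (9.51 at 0.1 mg/kg and 9.31 at 15 mg/kg), as in vehicle (9.84), while replicate 4 at 50 mg/kg read 6.87. Ppp1r15a, the GADD34 subunit that directs a phosphatase to eIF2alpha, ranged from 6.46 to 8.13 in vehicle and 6.67 to 7.93 at 50 mg/kg, with a difference of -0.26 (95% interval -0.84 to 0.31).

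Within groups the branch varied by replicate number, a pattern seen after the values were known and described here without a test. Atf4 read 11.76, 11.58, 11.61 and 11.74 in replicate 4 of vehicle, 0.1, 15 and 50 mg/kg, the highest array of each group. Ddit3 and Trib3 were likewise highest in replicate 4 of all 4 groups, and Chac1, Asns and Ppp1r15a in 3 of 4. Of all 14217 genes, 0.274% were highest in replicate 4 of all 4 groups and 3.47% in at least 3. Among 33 further listed ATF4 targets, 5 were highest there in all 4 groups (Mthfd2, Slc7a5, Ddit4, Fgf21 and Gars1), and 11 in at least 3. Of the 29 members outside the branch none was highest there in all 4 groups and 1, Ppp1r15a, in at least 3 (3.45%). These are close to the shares over all genes. Vehicle replicate 4 was the highest of all 19 arrays for 5 of 5 branch genes. Without it the differences at 50 mg/kg were 0.06 for Atf4, -0.18 for Ddit3, -0.79 for Chac1, 1.12 for Trib3 and -0.0967 for Asns, none of which passed. The labels do not say what the replicate number stands for.

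The chaperone and ATF4 arms were set side by side on each array. The median deviation of the 22 chaperone, isomerase and ERAD genes from the vehicle mean was 0.36, 0.35, 0.19, 0.22 and 0.36 on the 50 mg/kg arrays. The same measure of the 5 ATF4 branch genes was -0.39, -0.66, 0.076, 0.33 and -0.23. The first were all above the highest vehicle array (0.13), and the second lay within the vehicle range (-0.46 to 0.69) on all arrays but replicate 2. The 15 mg/kg arrays lay at 0.028 to 0.24 for the first, where replicate 2 exceeded 50 mg/kg replicates 3 and 4, and the 0.1 mg/kg arrays at -0.16 to 0.15. With vehicle replicates 2 and 4 left out the difference at 50 mg/kg had a median of 0.26 for the first and -0.19 for the second. With array numbers as a block the medians were 0.27 and -0.0058.

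**Figure D4:**
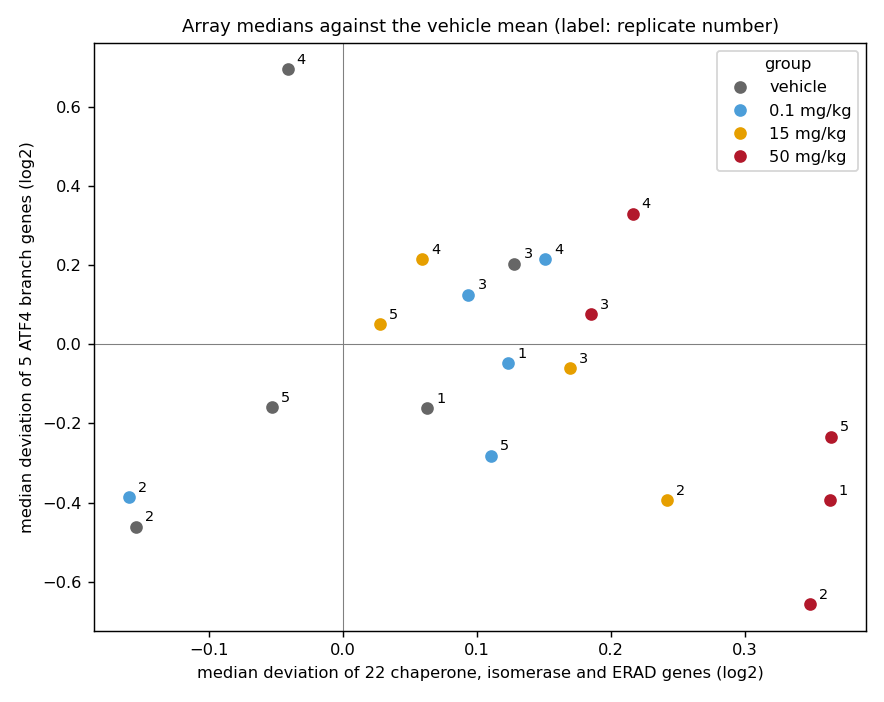
Each of the 19 arrays by its median deviation from the vehicle mean over the 22 chaperone, isomerase and ERAD genes (horizontal, log2) and over the 5 ATF4 branch genes (vertical, log2), labelled by replicate number and coloured by group. The 50 mg/kg arrays lie at 0.19 to 0.36 horizontally, to the right of every vehicle and 0.1 mg/kg array but overlapping the 15 mg/kg arrays (0.028 to 0.24), and are spread from -0.66 to 0.33 vertically.

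The lower doses were compared with the same vehicle arrays, so the comparisons are not independent of each other. At 15 mg/kg 0 of the 34 genes passed, as did 0% of all probe sets in limma (3083 had an unadjusted p under 0.05). Values above vehicle were found for 27 of the 34 genes with a median of 0.085, beside 49.5% and -0.0025 over all genes. An unadjusted p under 0.05 was found for 4 of the 34 genes, a share similar to the 3083 of all 31042 probe sets. The 4 genes were Dnajc3 (0.39), Ssr1 (0.34), Hspa5 (0.23) and Dnajb11 (0.29). None of the 34 genes had all 15 mg/kg arrays above all vehicle arrays, beside 2.21% of probe sets. Outside these genes, Cyp1a1 read 13.2 to 14.2 at 15 mg/kg and 7.10 to 8.36 in vehicle, yet did not pass. The 0% therefore does not show that 15 mg/kg was without effect. The shared spread includes 0.1 mg/kg replicate 1, at 14.1 for Cyp1a1 against 7.19 to 8.42 on the other arrays of its group. Without that array 11 probe sets passed at 15 mg/kg, and still 0 of the 34 genes. At 0.1 mg/kg 0 genes and 0% of probe sets passed (763 with an unadjusted p under 0.05), 26 of the 34 genes lay above zero with a median of 0.065, beside 55.0% and 0.012 over all genes, and none had an unadjusted p under 0.05. Leaving out 0.1 mg/kg replicate 1 and the near-identical pair left these counts of members at 0.

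The 2 higher doses were compared directly, a difference of means in which no vehicle array enters, although its error rests on the spread over all 19 arrays. None of the 34 genes and 0% of probe sets passed (limma, 2417 with an unadjusted p under 0.05), and 7 of the 34 had an unadjusted p under 0.05. Sdf2l1 lay 0.90 ± 0.21 above 15 mg/kg with an adjusted p of 0.287. All 50 mg/kg arrays exceeded all 15 mg/kg arrays for Sdf2l1, Derl1 and Derl2, beside 1.84% of probe sets. For Hspa5 and Dnajc3, in contrast, the means at the 2 doses were 0.059 and 0.088 apart, and that the doses act alike is not shown by this (95% intervals -0.15 to 0.27 and -0.17 to 0.34). A test for any difference among the 4 groups called 0 of the 34 genes, beside 0.325% of probe sets (limma F-test, 101), with the smallest adjusted p for Sdf2l1 (0.0729) and Ssr1 (0.0925).

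Beyond the 34 genes, 112 further genes of the same pathways were read from lists, of which 10 rose and none fell at 50 mg/kg, with a median of 0.11 and 82 above zero. Over the whole array 1.61% of probe sets passed, and over all genes the median was 0.0058 with 51.5% above zero. Of 22 genes of ER folding and oxidation 2 rose: Erp44, which retains oxidoreductases in the ER, by 0.48 (limma adjusted p = 0.00684), and Uggt1, the glycoprotein folding sensor, by 0.68 (0.0367). Of 22 genes of glycosylation, translocation and signal peptidase 4 rose. These were the signal peptidase subunits Sec11c (0.57) and Spcs2 (0.42), the signal recognition particle receptor subunit Srprb (0.36) and Ssr2 (0.41), a partner of Ssr1. Of 20 further ERAD genes 2 rose, the ubiquitin ligase Rnf139 (0.44) and the VCP-binding Ubxn4 (0.35). Of 15 further sensors and factors 1 rose, Eif2ak2 (0.35), the eIF2alpha kinase that reads double-stranded RNA. These calls also depended on which arrays entered and on the settings: Ssr2 passed in 10 of 34 alternatives, Eif2ak2 in 16, Sec11c in 17, Uggt1 and Rnf139 in 19, Srprb in 22, Ubxn4 in 30, Erp44 in 31 and Spcs2 in 32. None of these 9 passed with array numbers as a block.

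Of the 33 further ATF4 targets 1 rose and 17 lay above zero, with a median of 0.037. That gene was Shmt2, the mitochondrial serine hydroxymethyltransferase of one-carbon metabolism, at 9.80 ± 0.17 in vehicle and 10.70 ± 0.15 at 50 mg/kg (mean ± SD, n = 5 arrays each). Its difference of 0.89 ± 0.14 had a limma adjusted p of 0.00369 and passed in all 34 alternatives run, unlike any of the 34 genes above.

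Markers of other tissues were set beside these values. The pancreas list ranged from 4.94 to 8.62 in vehicle, 5.07 to 8.64 at 0.1 mg/kg, 5.02 to 8.07 at 15 mg/kg and 4.90 to 5.05 at 50 mg/kg. With this list as a covariate, 1 of the 34 genes passed at 50 mg/kg, Sdf2l1, at 1.11 (limma adjusted p = 0.0136). The muscle list ranged from 4.40 to 11.7 in vehicle and 4.57 to 10.2 at 50 mg/kg, and 6 genes passed with it as a covariate. Plasma and B cell genes (6 of 8 measured), another secretory cell type, averaged 4.92 to 5.59 in vehicle and 4.75 to 5.72 at 50 mg/kg. The kidney list ranged from 4.38 to 10.6 in vehicle and 4.43 to 7.55 at 50 mg/kg. Erythroid genes (6 of 9 measured) ranged from 9.69 to 11.6 in vehicle, with a median of 11.4, and from 9.74 to 11.6 at 50 mg/kg, with a median of 10.6. The part of the kidney, erythroid and plasma cell lists in the members' differences was not tested. On the near-identical pair, which carried kidney and pancreas transcripts, Dnajb9 read 9.72 and 9.71 and Herpud1 11.43 and 11.45, the lowest arrays of their groups. Sdf2l1 went the other way, at 9.06, the highest vehicle array, and 9.08, level with the highest at 0.1 mg/kg. The median deviation of the 22 chaperone, isomerase and ERAD genes from the vehicle mean was -0.15 and -0.16 on the pair.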

How the data were processed

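The submitters' processing notes name RMA, and the deposited values are log2 signals per probe set, per the labels of 19 arrays. The version of RMA is not given by the sources used here. RMA quantile-normalises arrays, and folds read from arrays can be compressed near both ends of the signal range. Of 31099 probe sets, 57 controls were left out and 31042 tested, and array medians lay between 6.05 and 6.16. The number of arrays limits the precision.

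Per the series' design text, the submitters tested each dose against vehicle with R/maanova (false discovery rate 0.05), which was not run here. One mean per dose group was fitted to all 19 arrays with limma 3.58.1 in R 4.3.3 (15 residual and 2.78 prior degrees of freedom). Tests were two-sided, adjusted by Benjamini-Hochberg over all 31042 probe sets, with 0.05 as threshold. A comparison of 50 with 15 mg/kg and an F-test were added. Symbols came from the platform annotation, updated by gene ID through RefSeq (20758 of 20826 probe sets with 1 symbol). The fit was tested on simulated data.

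The members, the further lists and the rule to name every member and each further gene that passed were chosen with earlier results of these data known. Alternatives were 12 other settings and each of the 19 arrays left out in turn, and 3 settings chosen after the values had been seen. Same-numbered arrays of different groups (27 pairs) had deviations correlated from -0.53 to 0.89 (median 0.036), so the numbers were not taken to pair the samples. Promoters were searched in RefSeq windows, and protein sequences were not used here.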

Additional observations from a re-analysis of the deposited data

Results flagged for a closer look

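In 7 of 136 sets of 1 gene and 1 dose group, an array stood far from the others of its group, where chance alone gives about 1 in 20. The 7 found are about that share, so they are listed as a description only. Of these, 3 lay in the same array, 0.1 mg/kg replicate 2, which is nearly identical to vehicle replicate 2 and carried kidney and pancreas transcripts. There Dnajb9 read 9.714 against 10.221 to 10.367 on the other arrays of the group, Pdia4 read 11.454 against 12.004 to 12.182, and Xbp1 read 11.991 against 12.425 to 12.442. At 15 mg/kg, Herpud1 read 12.372 in replicate 4 against 11.762 to 11.818, Edem1 read 10.901 in replicate 5, which carried pancreas and intestine transcripts, against 11.369 to 11.431, and Vcp read 11.764 in replicate 2 against 11.514 to 11.547. At 50 mg/kg, Chac1 read 6.369 in replicate 1 against 6.872 to 7.04.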

How the results depend on the processing

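At 50 mg/kg, 6 members passed in the reported fit. The count was 10 with probe sets above the median level only, 11 with array weights, 1 with the pancreas list as a covariate, 0 with the array number block, 0 without vehicle replicates 2 and 4 and, chosen after seeing the data, 1 with the array number block and 3 arrays left out. Leaving out 1 array at a time gave 1 to 7. With the replicate block the count was 7 at 50 mg/kg (Calr and Pdia6 passed, at adjusted p 0.0375 and 0.0398, and Dnajc3 did not, at 0.0621) and 2 in the F-test, and 6 of 19 arrays correlated best with their own number. The F-test, at 0 members in the reported fit, gave 1 with the level filter, 3 with array weights, 1 without the near-identical pair, 2 without the pair and 0.1 mg/kg replicate 1, and 0 to 3 with 1 array left out. The comparisons at 15 mg/kg, at 0.1 mg/kg and of 50 with 15 mg/kg kept 0 members in every alternative run, and no call turned direction. Over all probe sets, 499 passed at 50 mg/kg, against 57 with the array number block, 88 without vehicle replicates 2 and 4, 216 with the block and 3 arrays left out, 287 with the pancreas list, 921 with array weights, and 178 to 704 with 1 array left out. The F-test's 101 became 178 with the level filter, 373 with array weights, 17 with the block, 46 without vehicle replicates 2 and 4, 60 with the block and 3 arrays left out, 267 without the pair and 0.1 mg/kg replicate 1, and 46 to 270 with 1 array left out. At 15 mg/kg 0 probe sets became at most 14 (array number block with 3 arrays left out), and for 50 against 15 mg/kg at most 2 (near-identical pair left out). The causes were not tested. Numbers 1 to 8 hold 1 array each of vehicle, 0.1 and 15 mg/kg and numbers 9 to 20 hold 1 array at 50 mg/kg, so few arrays set the block, among them 0.1 mg/kg replicate 1, and the labels do not say what the numbers mark.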
